A study of Homo sapiens with 60 samples.

Results

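The 41 genes described here carry out or report the interferon response and the display of peptides on MHC class I molecules. They were taken by symbol from a table of 58395 gene identifiers, and all 41 were found. Of these, 40 had enough counts to be tested, and OAS2 did not. They were read in 5 classes, namely early genes of the IRF1 type (IRF1, GBP1 and GBP2), regulatory factors (5 genes), targets of the ISGF3 complex (18 genes), nucleic acid sensors with their ubiquitin ligases (6 genes) and MHC class I presentation (9 genes).

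The cells were HEK293A, a human embryonic kidney line, with the TDP1 gene targeted for knockout. TDP1 is a phosphodiesterase that clears topoisomerase 1 protein stalled on DNA. Each of 3 clones (KO_Tdp1 C6, F7 and G6) was left untreated or given 0.1% DMSO as vehicle, 100 nM topotecan with 0.1% DMSO, 5 µM OL9-119 in 0.1% DMSO, or topotecan with OL9-119 at those doses, for 5 to 5.5 hours. Topotecan traps topoisomerase 1 on DNA, and OL9-119 is named by its code only. Each of the 15 groups of clone and treatment held 4 libraries labelled as biological replicates, 60 libraries in all. Every library came from a knockout clone, so no value below compares a knockout with unedited cells, and what separates the clones cannot be told apart from what separates single-cell isolates of any kind.

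Interferons act through surface receptors whose Janus kinases phosphorylate STAT proteins. Type I interferons drive assembly of ISGF3, which contains STAT2 and IRF9 and binds the interferon-stimulated response element (ISRE). Type II interferon acts through STAT dimers that bind the gamma-activated site (GAS) and induce IRF1, a transcription factor that in turn switches on genes of antigen presentation. Several of these genes, IRF1 and the MHC class I genes among them, are also known targets of NF-kB.

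Library totals ran from 4.62 M to 20.9 M counts (M, 1e6), and the median was 11.4 M. TDP1 itself was counted in every library, between 17.8 and 42.2 CPM (counts per 1e6 counts, with totals scaled for composition). The labels do not say which part of the gene was edited, so whole-gene counts do not test the knockout. Of 8 genes that mark the HEK293 line, such as NEFL and VIM, 7 in C6, 7 in F7 and 8 in G6 had a median of at least 1 CPM. Summed over the list they ranged over 890 to 1133 CPM in C6, 534 to 612 CPM in F7 and 727 to 885 CPM in G6. The 4 hepatocyte markers summed to at most 1.94 CPM and the 7 blood cell markers to at most 6.90 CPM in any library, with PTPRC at 0 in 53 of 60 libraries, and the 5 fibroblast markers to between 16.3 and 46.1 CPM. In 14 libraries, 10 of C6 and 4 of G6, under 20000 genes are expected once totals are thinned to 4.5 M counts. These are called low-detection libraries below.

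The regulatory sequence of the genes called with topotecan is shown first. The ISRE letters occur in genes that rose, in the gene that fell and in genes that did not pass. RefSeq promoters (GRCh38.p14) were matched for 29 of the 41 genes, and the 250 bases before the RefSeq start were searched on both strands. The motifs were ISRE (GAAANNGAAA), GAS (TTCNNNGAA, which reads alike on both strands) and the NF-kB consensus. ISRE letters were found in 18 of the 29 genes (62.1%) against 3.02% of 35116 RefSeq promoters of the same length. GAS letters were found in 7 genes (24.1%) against 6.57%, and the NF-kB consensus in 12 genes (41.4%) against 9.96%. A match is a description of the sequence and not a measured binding site. The genes were chosen as known interferon response and antigen presentation genes, and many are classed as targets of a complex that binds the ISRE. The higher shares can therefore follow from that choice alone, and no conclusion is drawn from them. The 7 windows of called genes with a matched promoter follow, 5′ to 3′ on the gene's strand, with every motif match in capitals, for IRF1 (chr5:132490774-132491023, minus strand), TAPBP (chr6:33314079-33314328, minus), TAP1 (chr6:32853705-32853954, minus), OAS3 (chr12:112938224-112938473, plus), IFIT3 (chr10:89327747-89327996, plus), IFIT5 (chr10:89414318-89414567, plus) and IFIT1 (chr10:89392373-89392622, plus).
IRF1: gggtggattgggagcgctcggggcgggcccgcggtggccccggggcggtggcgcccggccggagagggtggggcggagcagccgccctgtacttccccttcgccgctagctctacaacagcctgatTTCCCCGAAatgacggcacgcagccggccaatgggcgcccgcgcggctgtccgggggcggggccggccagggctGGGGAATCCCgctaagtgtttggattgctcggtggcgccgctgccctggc
TAPBP: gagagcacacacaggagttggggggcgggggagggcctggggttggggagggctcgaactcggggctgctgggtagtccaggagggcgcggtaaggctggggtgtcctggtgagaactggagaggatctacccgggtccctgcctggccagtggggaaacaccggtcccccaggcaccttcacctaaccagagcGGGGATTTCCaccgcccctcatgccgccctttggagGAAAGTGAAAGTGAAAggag
TAP1: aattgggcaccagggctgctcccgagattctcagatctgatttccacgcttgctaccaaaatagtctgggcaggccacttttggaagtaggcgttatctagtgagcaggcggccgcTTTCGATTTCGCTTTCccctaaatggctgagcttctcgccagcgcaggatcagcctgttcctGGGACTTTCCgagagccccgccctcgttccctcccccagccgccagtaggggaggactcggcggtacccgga
OAS3: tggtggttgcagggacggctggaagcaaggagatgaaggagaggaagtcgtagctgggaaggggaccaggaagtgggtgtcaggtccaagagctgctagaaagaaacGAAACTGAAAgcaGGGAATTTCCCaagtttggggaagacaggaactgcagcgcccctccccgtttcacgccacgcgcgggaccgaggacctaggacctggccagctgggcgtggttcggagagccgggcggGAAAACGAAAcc
IFIT3: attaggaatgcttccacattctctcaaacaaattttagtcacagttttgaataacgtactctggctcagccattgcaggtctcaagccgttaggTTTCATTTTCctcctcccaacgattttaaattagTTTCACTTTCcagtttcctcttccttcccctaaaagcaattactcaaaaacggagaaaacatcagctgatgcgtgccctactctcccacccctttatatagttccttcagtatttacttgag
IFIT5: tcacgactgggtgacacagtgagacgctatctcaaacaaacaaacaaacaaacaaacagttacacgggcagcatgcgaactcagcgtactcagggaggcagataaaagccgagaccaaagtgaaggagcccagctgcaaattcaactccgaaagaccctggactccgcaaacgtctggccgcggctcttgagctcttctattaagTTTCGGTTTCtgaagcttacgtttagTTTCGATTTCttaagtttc
IFIT1: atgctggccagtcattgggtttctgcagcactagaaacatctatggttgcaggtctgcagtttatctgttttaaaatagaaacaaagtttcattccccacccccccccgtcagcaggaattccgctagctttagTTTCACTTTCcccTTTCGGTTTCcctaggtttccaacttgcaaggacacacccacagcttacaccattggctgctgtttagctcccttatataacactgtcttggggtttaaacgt
The IRF1 window held a GAS at -124 to -116 from the start and the NF-kB consensus at -50 to -41, and no ISRE. TAPBP and TAP1 each held overlapping ISRE letters and an NF-kB consensus, at -56 to -47 in TAPBP and at -72 to -63 in TAP1. OAS3 held ISRE letters at -143 to -134 and at -12 to -3, with the NF-kB consensus between them. The IFIT3, IFIT5 and IFIT1 windows each held ISRE letters at 2 positions, at -45 to -36 and -19 to -10 in IFIT5, and neither GAS nor the NF-kB consensus was found in them. IRF7 and HLA-E, which also rose, were not matched. The same letters occurred in matched genes that did not pass with topotecan, so they do not mark the called genes. ISRE letters were found in ISG15, IFI6, BST2 and B2M, among others, and the NF-kB consensus in HLA-B, HLA-C and IFIH1, among others. STAT2, TRIM21 and TRIM25 held none of the motifs.

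Class I genes were among the most abundant of the 41, and IRF9 and the OAS genes other than OAS3 among the scarcest. Per kb of exon in the 12 untreated libraries, HLA-C had the highest mean level, at 88.0 CPM per kb, followed by HLA-B (71.3), BST2 (67.3), HLA-E (64.35) and B2M (51.3). The length used is that of all annotated exons of a gene together, which can exceed its main transcript, and the order depends on it. Before division by length B2M was highest, at 311.6 CPM over 6.08 kb, against 220.6 CPM over 2.51 kb for HLA-C. HLA-B, HLA-C and HLA-E encode class I heavy chains, B2M their shared light chain, and BST2 a membrane protein that tethers budding viruses. NLRC5, the transactivator of class I genes, stood at 1.06 CPM per kb. IRF9, the DNA-binding part of ISGF3, was near the floor, with 278 counts over all 60 libraries and 0 counts in 13 of them. OAS1 was at 0 in 18 libraries, OAS2 in 11, CGAS in 8 and OASL in 4. These genes are given below as counts. IRF9 counts carry a further limit, since 1838 bases of its exons are shared with a neighbouring gene model. Other genes of the 41 share exon bases too, among them TAP2 (2064 bases), IRF1 (1716, opposite strand) and IRF3 (734, opposite strand). The gene models of IFITM1 and IFITM2 share 351 bases. The model opposite IRF1 had 844 counts against 24694 for IRF1. Counts for HLA-B, HLA-C and the IFITM genes can be split between near-identical copies, and HLA alleles can differ from the reference.

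**Figure D1:**
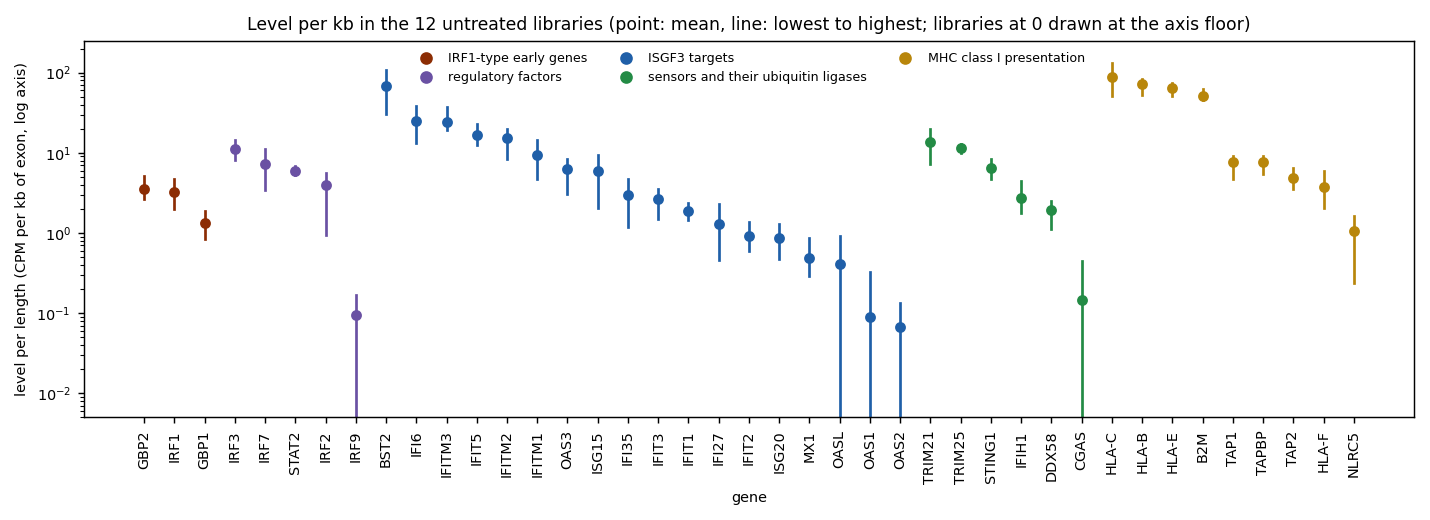
Level of each of the 41 genes in the 12 untreated libraries, in CPM per kb of exon on a log axis. Points are means and lines run from the lowest to the highest library, and HLA-B, HLA-C, HLA-E, B2M and BST2 stood above 50 CPM per kb while IRF9, OAS1, OAS2 and CGAS stood below 0.2.

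The interferon genes on the list were all but absent and the receptor chains present. The IFNA genes were not on the list and were not read. IFNB1, the first type I interferon made by most cells, had 8 counts in all and was at 0 in 55 of 60 libraries. IFNG had 6 counts, and IFNK had none. The type III genes IFNL1, IFNL2 and IFNL3 had 42, 16 and 35 counts, and IFNE, with 161 counts, was the most counted interferon on the list. The receptor chains were counted in every library, with medians of 58.3 CPM for IFNAR1, 6.27 CPM for IFNAR2, 51.8 CPM for IFNGR1, 48.35 CPM for IFNGR2 and 21.2 CPM for IFNLR1. IL10RB was the scarcest of them, with a median of 1.03 CPM. Of the 13 ligand and receptor genes 7 could be tested, and with topotecan IFNGR1 rose (log2 change 0.26) while the other 6 did not pass.

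Topotecan raised a small set of the genes, led by IRF1. Against DMSO, averaged over the 3 clones, 8 of 40 tested genes were higher (20%), 1 was lower (2.5%) and 31 did not pass. Over all 18985 genes tested, 5.99% were called higher and 9.35% lower in the same comparison. The genes that rose were IRF1, IRF7, TAPBP, IFIT3, HLA-E, OAS3, TAP1 and IFIT5, and the gene that fell was IFIT1. The median log2 change was 0.13 over the 40 genes and 0.02 over all genes tested. By class, 1 of 3 early genes rose, 1 of 5 regulatory factors, 3 of 17 tested ISGF3 targets with 1 falling, 0 of 6 sensors and ligases, and 3 of 9 class I presentation genes. In bulk RNA a change in a share of the cells and a change in every cell cannot be told apart, and the p-values here measure the spread between libraries within these 3 clones.

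**Figure D2:**
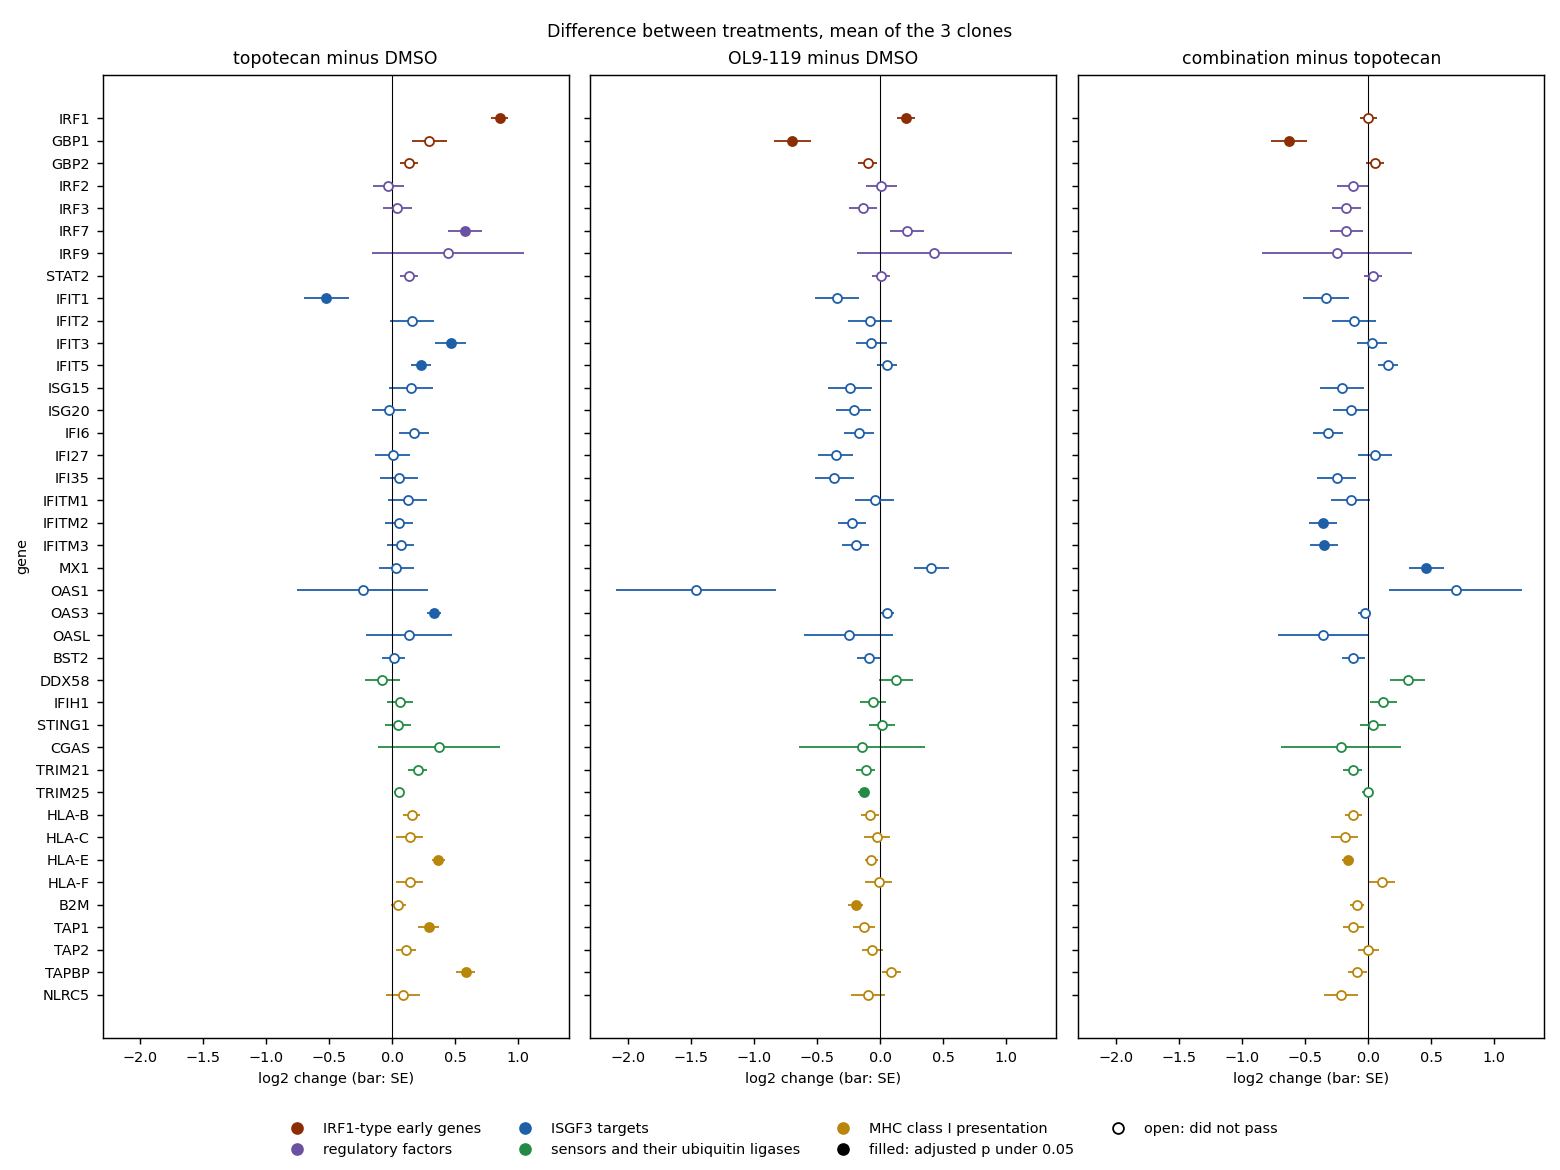
Log2 change of the 40 tested genes in 3 comparisons, each the mean of the within-clone differences, with bars of 1 standard error and filled points where the adjusted p was under 0.05. IRF1, IRF7 and TAPBP stand highest for topotecan, and GBP1 stands lowest among the filled points for OL9-119 and for the combination against topotecan; the OAS1 values rest on near-zero counts.

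IRF1 (chr5:132481609-132490798, hg38, minus strand) was higher in every clone. In C6 it was 14.6, 22.6, 18.7 and 16.9 CPM in the DMSO libraries and 42.2, 35.65, 38.1 and 33.85 CPM with topotecan. The G6 libraries gave 20.9, 16.05, 18.1 and 23.4 CPM with DMSO and 42.75, 43.5, 44 and 51.3 CPM with topotecan. In F7 the DMSO libraries already stood at 36.4, 39.2, 39.1 and 39 CPM, and the topotecan libraries at 43.6, 46.6, 47.2 and 53.1 CPM. All 4 topotecan libraries lay above all 4 DMSO libraries in each clone. Averaged over the clones the log2 change was 0.85 ± 0.07 (SE, 1.81-fold, edgeR quasi-likelihood test, adjusted p = 2.93e-15). It stayed between 0.84 and 0.88 in the 9 alternative fits, with adjusted p from 3.31e-35 to 5.79e-10. Within libraries of each name prefix, a mark carried by the library names, it was 1.00, 0.79 and 0.83.

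The size of the IRF1 change differed between the clones. The mean went from 18.2 ± 3.36 to 37.45 ± 3.61 CPM in C6 (SD, n = 4), from 19.6 ± 3.19 to 45.4 ± 3.97 CPM in G6, and from 38.4 ± 1.37 to 47.6 ± 3.97 CPM in F7. As log2 changes these were 1.04 ± 0.12 in C6 and 1.20 ± 0.12 in G6, which passed (adjusted p = 4.53e-09 and 1.38e-11, edgeR). The F7 change of 0.31 ± 0.11 did not pass (adjusted p = 0.223, edgeR). A test of whether the topotecan change is the same in all 3 clones gave an adjusted p of 0.0022 for IRF1 (edgeR). Of all genes tested, 0.137% passed that test, and IRF1 was the only one of the 40 to do so. The call was lost when every library numbered 1, 2 or 3 was left out (adjusted p = 0.0669, 0.0772 and 0.176), held without number 4 (0.0117), and gave 0.000197 without the 14 low-detection libraries. Over the 8 alternatives its adjusted p ran from 0.000197 to 0.176. TAPBP came next among the class I genes (adjusted p = 0.185, edgeR, 0.0512 to 1 over 8 alternatives). With topotecan the clones' IRF1 levels lay within 33.85 to 53.1 CPM, against 14.6 to 39.2 CPM with DMSO.

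**Figure D3:**
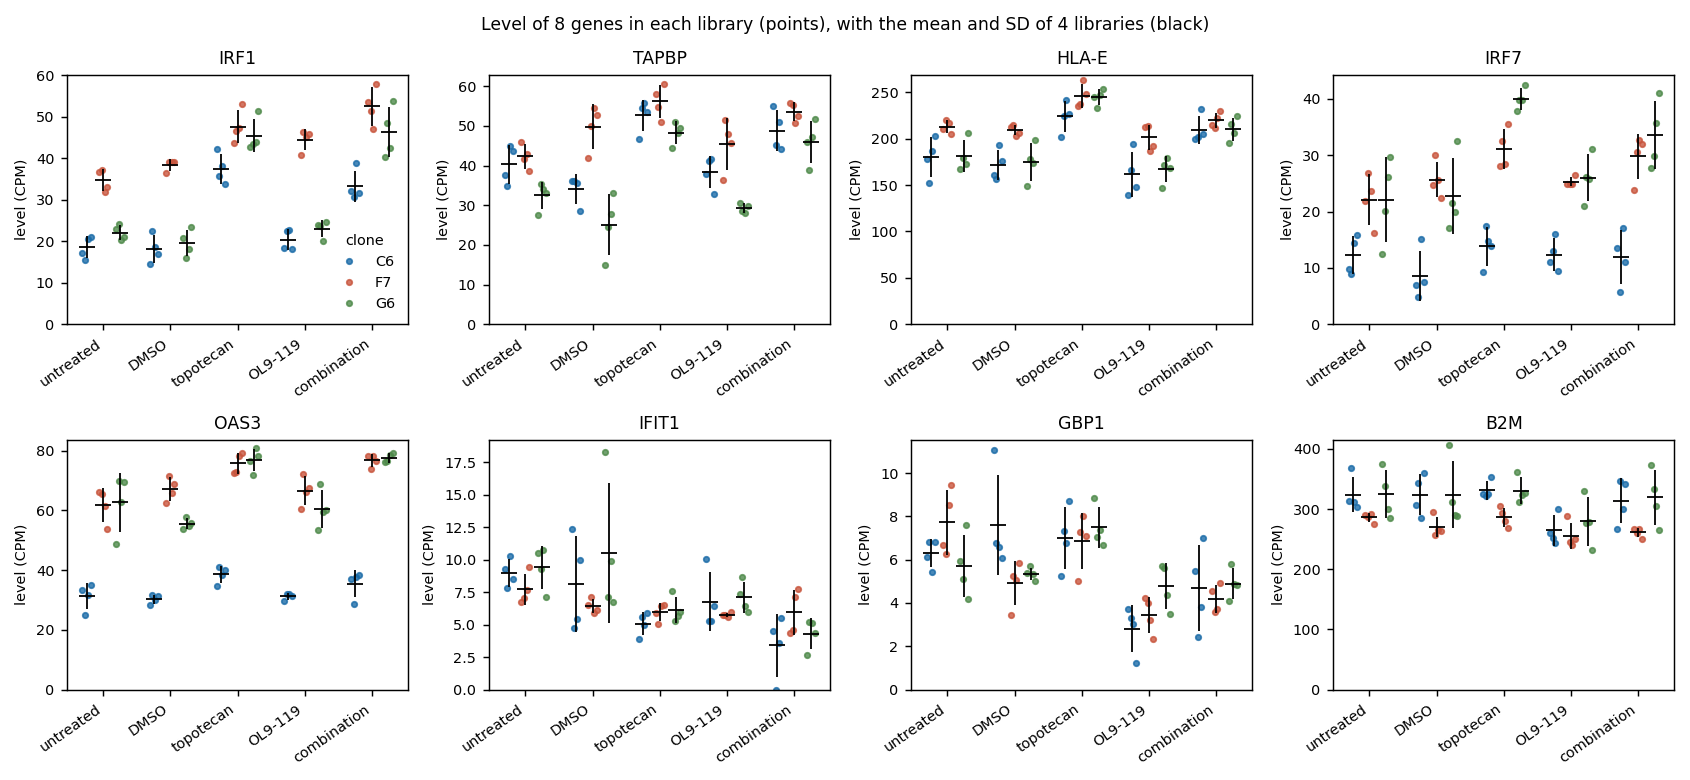
Level in CPM of IRF1, TAPBP, HLA-E, IRF7, OAS3, IFIT1, GBP1 and B2M in each library (points, coloured by clone) with the mean and SD of the 4 libraries of each clone and treatment (black), from an axis starting at 0. IRF1 in F7 starts at 36.4 CPM or more with DMSO, where C6 and G6 stay at 23.4 CPM or less.

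The NF-kB list moved in the same comparison. Of 10 genes that NF-kB is known to induce, 9 were higher with topotecan and none was lower, with a median log2 change of 0.95. They included TNFAIP3 (1.81), NFKBIA (1.12) and CXCL8 (2.56), and NFKB1 did not pass. The test of clone dependence was passed by 5 of the 10, namely TNFAIP3, NFKBIA, NFKB2, CXCL8 and CCL20. That test carries no direction, and the topotecan changes of this list within each clone were not read. In DMSO libraries TNFAIP3 was lower in C6 than in F7 by a log2 difference of -1.82 and higher in F7 than in G6 by 1.05. The part of NF-kB in the IRF1 values was not tested.

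The class I pathway responded at single points. TAPBP (chr6:33299694-33314387, minus strand) encodes tapasin, which holds class I molecules at the peptide transporter. In C6 it was 36, 36.1, 35.7 and 28.6 CPM with DMSO and 46.8, 54.5, 55.8 and 53.5 CPM with topotecan. G6 gave 15, 24.6, 27.9 and 33.05 CPM with DMSO and 44.3, 51.1, 48.1 and 49.5 CPM with topotecan. The F7 libraries overlapped, at 41.9, 50, 54.5 and 52.8 CPM against 58.1, 54.8, 51.1 and 60.7 CPM. The mean log2 change of TAPBP was 0.58 ± 0.08 (1.5-fold, adjusted p = 1.15e-08, edgeR), and it passed in all 9 alternative fits.

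HLA-E (chr6:30489467-30494205, plus strand), a class I molecule read by natural killer cells, rose by a smaller amount in all clones. Its C6 libraries stood at 160.5, 157, 193 and 176 CPM with DMSO and at 202, 225, 241 and 227 CPM with topotecan. In F7 the values were 212, 215, 203 and 206 CPM against 235, 237, 263 and 248 CPM, and in G6 149, 177.5, 174 and 198 CPM against 245, 233, 246 and 254 CPM. No topotecan library overlapped the DMSO libraries of its clone. The log2 change was 0.37 ± 0.05 (1.29-fold, adjusted p = 5.28e-08, edgeR). TAP1, a subunit of the peptide transporter, went from a median of 36 CPM with DMSO (28.35 to 49.9, n = 12) to 47.4 CPM (34.6 to 51.15), with a log2 change of 0.29 ± 0.09 (adjusted p = 0.0132, edgeR). TAP1 was lost without the libraries numbered 2 or 3 (adjusted p = 0.0516 and 0.116), within a range of 0.000829 to 0.116 over 9 alternatives. HLA-B was at 0.15 ± 0.07, HLA-C at 0.14 ± 0.11, HLA-F at 0.14 ± 0.11, B2M at 0.05 ± 0.06, TAP2 at 0.11 ± 0.08 and NLRC5 at 0.09 ± 0.13 (log2 change ± SE), and none of these passed. HLA-B passed in 3 of 9 alternatives.

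The ISGF3 targets split, even among neighbours. OAS3 (chr12:112938352-112973249, plus strand) makes the oligoadenylates that activate RNase L. It was 28.4, 31.6, 29.9 and 31.3 CPM in C6 with DMSO and 34.8, 41.2, 38.3 and 40.1 CPM with topotecan. In F7 it was 62.4, 71.7, 65.9 and 69.0 CPM against 72.7, 72.9, 78.1 and 79.4 CPM, and in G6 53.8, 57.9, 54.9 and 55.9 CPM against 76.5, 71.9, 80.85 and 78.15 CPM. The groups did not overlap in any clone, and the log2 change was 0.33 ± 0.05 (1.26-fold, adjusted p = 3.77e-06, edgeR). OAS1 lies next to OAS3 on chromosome 12 and had at most 31 counts in a library. IRF1, HLA-E and OAS3 were the 3 genes whose topotecan libraries lay wholly above DMSO in all 3 clones, where 0.627% of all genes tested did so.

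The IFIT genes encode proteins that bind foreign RNA and lie side by side on chromosome 10. IFIT3 had a median of 7.425 CPM with DMSO (4.59 to 10.9, n = 12) and 10.25 CPM with topotecan (7.78 to 12.6). Its log2 change was 0.46 ± 0.12 (adjusted p = 0.00341, edgeR), and the call was lost without the libraries numbered 3 (adjusted p = 0.0638; 0.000897 to 0.0638 over 9 alternatives). IFIT5 changed by 0.23 ± 0.08 (adjusted p = 0.048, edgeR) and was lost without number 2, 3 or 4 (0.218, 0.193 and 0.154; 5.94e-05 to 0.218 over 9 alternatives). IFIT2 was at 0.16 ± 0.17 and did not pass. Nor did ISG15, the ubiquitin-like modifier (0.15 ± 0.17), IFI6 (0.17 ± 0.12), ISG20 (-0.03 ± 0.14), IFI27 (0.00 ± 0.14), IFI35 (0.05 ± 0.15), BST2 (0.01 ± 0.09) or MX1 (0.03 ± 0.14). IFITM1, IFITM2 and IFITM3 stood at 0.12, 0.05 and 0.07. OASL, OAS1 and CGAS were tested on few counts and did not pass, and OAS2 had at most 17 counts in a library.

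IFIT1 (chr10:89392546-89406486, plus strand) went the other way. Its C6 libraries were 12.4, 4.72, 5.46 and 9.94 CPM with DMSO and 3.87, 5.58, 4.97 and 5.89 CPM with topotecan. In G6 the values were 18.3, 7.12, 9.91 and 6.78 CPM against 7.58, 5.28, 5.69 and 5.995 CPM, and in F7 6.55, 7.14, 5.865 and 6.14 CPM against 5.885, 5.015, 6.46 and 6.53 CPM. The groups overlapped in every clone. The log2 change was -0.52 ± 0.18 (adjusted p = 0.0324, edgeR). Without the libraries numbered 1, which include the DMSO values of 12.4 and 18.3 CPM, it was -0.30 (adjusted p = 0.366), and it was also lost without number 3 or 4 (0.123 and 0.0593). Over the 9 alternatives the adjusted p ran from 0.0076 to 0.366. The direction held in all 9, from -0.58 to -0.30.

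Among the regulatory factors only IRF7 (chr11:612553-615999, minus strand), which drives type I interferon genes once infection is sensed, passed. In C6 it was 6.96, 4.92, 15.1 and 7.58 CPM with DMSO and 9.29, 17.4, 14.7 and 13.8 CPM with topotecan. F7 gave 24.8, 30, 25.6 and 22.4 CPM against 28.1, 32.4, 28.4 and 35.6 CPM, and G6 17.1, 21.5, 20 and 32.6 CPM against 37.75, 39.8, 39.8 and 42.4 CPM. The groups overlapped in C6 and F7 and were separate in G6. The log2 change was 0.58 ± 0.14 (1.49-fold, adjusted p = 0.00116, edgeR), and it passed in all 9 alternatives. STAT2 was at 0.14 ± 0.07, IRF3 at 0.04 ± 0.11 and IRF2 at -0.03 ± 0.12, and none of these passed. IRF9 had 13, 22 and 6 counts in the DMSO libraries of C6, F7 and G6 and 18, 12 and 29 counts with topotecan.

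No sensor or ligase passed. TRIM21, a cytosolic antibody receptor and ubiquitin ligase, came nearest, at 0.20 ± 0.07 (adjusted p = 0.0537, edgeR). It passed in 5 of 9 alternatives. IFIH1 was at 0.06 ± 0.10, STING1 at 0.04 ± 0.10, TRIM25 at 0.06 ± 0.04 and DDX58 at -0.08 ± 0.14. The early genes GBP1 and GBP2, guanylate-binding proteins that coat intracellular pathogens, stood at 0.29 ± 0.14 (adjusted p = 0.164, edgeR) and 0.13 ± 0.07.

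**Figure D4:**
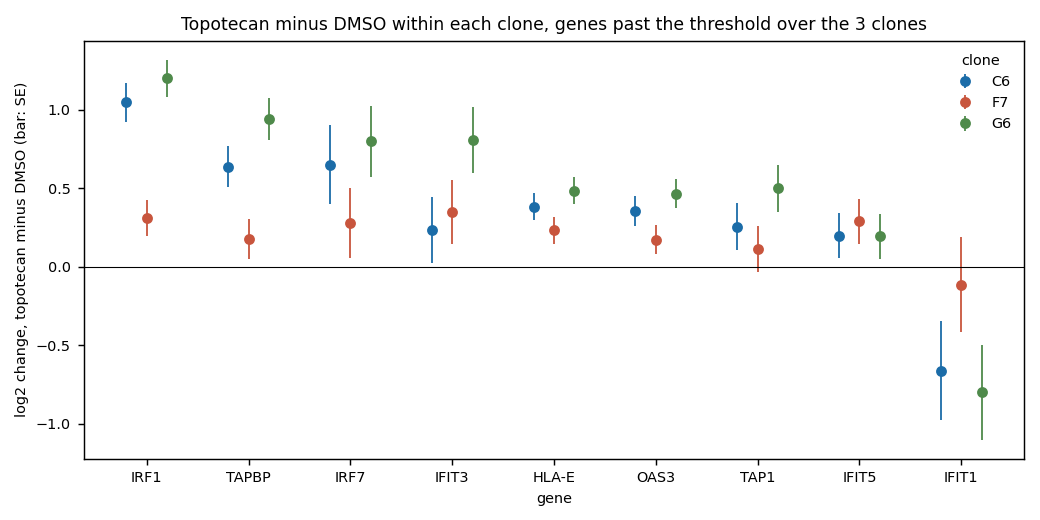
Log2 change with topotecan against DMSO within each clone, for the 9 genes past the threshold over the 3 clones, with bars of 1 standard error. For IRF1 the F7 point (0.31) lies below the C6 and G6 points (1.04 and 1.20), and IFIT1 is the one gene with points below 0.

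Within single clones the calls came from C6 and G6. C6 had 4 genes higher (IRF1, TAPBP, HLA-E and OAS3), where 4.71% of all genes were called in either direction. G6 had 7 higher (the same 4 with IRF7, IFIT3 and TAP1), where 8.72% were called. F7 had none, with 4 at an unadjusted p under 0.05, where 1.94% were called. Fewer genes of any kind passed in F7, and a difference between clones was shown by its own test for IRF1 alone.

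Most genes on the other interferon lists did not pass. Of 29 tested genes on a list of other interferon-stimulated genes, 2 were higher with topotecan (CXCL10 and HCP5) and 1 was lower (DDX60), with a median log2 change of -0.01. CXCL10, a chemokine, reached at most 55 counts in a library, and HCP5 is a non-coding transcript of the MHC region. Of 11 signalling genes, TICAM1 was higher (0.54) and JAK1 lower (-0.23). PIAS1, an inhibitor of STAT signalling, was lower (-0.39) and was the only one of 13 tested negative regulators to pass. The feedback genes SOCS1 and USP18, which interferon induces, did not pass. On the antigen processing list 1 of 17 tested genes passed, PSME3 (0.12), and the immunoproteasome genes PSMB8, PSMB9 and PSMB10 did not.

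Gene length moved with the topotecan values. Over protein-coding genes the median log2 change was 0.12 for genes spanning under 10 kb, 0.09 for 10 to 30 kb, -0.01 for 30 to 100 kb and -0.21 for over 100 kb. The 40 genes fell 17, 13 and 10 in the first 3 spans, with none over 100 kb, and 5, 2 and 1 of them rose. In the same spans 12.6%, 11.4% and 4.5% of all coding genes rose. HLA-B was placed by an annotated span of 87.7 kb that reaches into HLA-C, while its exons cover 3.05 kb. The part of gene length in the members' values was not tested.

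OL9-119 alone changed few of these genes. Against DMSO, 1 of 40 was higher (2.5%, against 4.47% of all genes tested) and 3 were lower (7.5%, against 5.00%), shares near those of all genes. The largest change among these 4 was in GBP1 (chr1:89052319-89065360, minus strand). Its C6 libraries went from 11, 6.77, 6.57 and 6.08 CPM with DMSO to 3.705, 3.29, 3.045 and 1.22 CPM with OL9-119, with no overlap. In F7 the values were 3.47, 5.26, 5.08 and 5.83 CPM against 4.21, 3.98, 3.23 and 2.36 CPM, and in G6 5.365, 5.70, 5.335 and 5.01 CPM against 5.715, 5.59, 4.36 and 3.51 CPM, where the groups overlapped. The mean log2 change of GBP1 was -0.70 ± 0.14 (adjusted p = 0.000456, edgeR), and it passed in all 9 alternatives (-0.79 to -0.53). Within libraries of the 3 name prefixes it was -0.41, -0.57 and -1.20. By clone it was -1.43 in C6, -0.50 in F7 and -0.16 in G6. The test of a difference between clones did not pass (adjusted p = 0.999, edgeR), and 0 of the 40 genes passed it, where 0.0263% of all genes did and 5 of the 40 had an unadjusted p under 0.05. DESeq2 was not run for this test.

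B2M went from a median of 292 CPM with DMSO (256.5 to 406, n = 12) to 256 CPM with OL9-119 (232 to 330). Its log2 change was -0.20 ± 0.06 (adjusted p = 0.0194, edgeR) and was lost without the libraries numbered 2 or 3 (adjusted p = 0.165 and 0.0911; 0.00017 to 0.165 over 9 alternatives). TRIM25, the ubiquitin ligase that assists the RNA sensor encoded by DDX58, changed by -0.13 ± 0.04 (adjusted p = 0.0267), and IRF1 by 0.21 ± 0.07 (adjusted p = 0.0428). TRIM25 passed in 3 and IRF1 in 4 of 9 alternatives, so neither call was stable. Of the NF-kB list 4 of 10 genes were higher (NFKBIA, TNFAIP3, NFKB1 and CXCL8). The antigen processing list had 1 gene higher and 3 lower of 17 tested, the latter being PSME1, PSME3 and NFYA.

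With both compounds the topotecan pattern was largely present. Against DMSO, 8 of 40 genes were higher (20%, against 9.52% of all genes) and 2 were lower (5.0%, against 11.7%). IRF1 stood at 32.0, 30.7, 38.9 and 31.55 CPM in C6, 53.6, 51.4, 47 and 58.0 CPM in F7, and 40.4, 48.5, 42.6 and 53.7 CPM in G6. Every one of these libraries lay above the DMSO libraries of its clone, which no other member did in all 3 clones with the combination (1 of 40, where 1.18% of all genes did). The log2 change of IRF1 was 0.86 ± 0.07 (adjusted p = 1.97e-15, edgeR), against 0.85 for topotecan alone, where the same DMSO libraries serve both. TAPBP (0.50), MX1 (0.50), IFIT3 (0.49), IRF7 (0.40), IFIT5 (0.38), OAS3 (0.30) and HLA-E (0.21) were the other genes that rose. IFIT1 was lower by -0.86 ± 0.18 (adjusted p = 0.000226), and IFITM2, which blocks viral entry, by -0.31 ± 0.11 (adjusted p = 0.0437). One C6 combination library had 0 counts of IFIT1, while the other 3 stood at 4.53, 3.63 and 5.54 CPM. IFIT1 passed in all 9 alternatives, from -1.03 to -0.55, the latter without the libraries numbered 1 (adjusted p = 0.0378; 3.23e-06 to 0.0378 over the 9), and IFITM2 passed in 4. IRF7 passed in 6, and IFIT3 and MX1 in 7 each.

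Adding OL9-119 to topotecan moved 5 genes, most of them down. Against topotecan alone, 1 of 40 was higher (2.5%, against 3.33% of all genes) and 4 were lower (10.0%, against 3.45%). GBP1 had a median of 7.19 CPM with topotecan (5.03 to 8.86, n = 12) and 4.70 CPM with the combination (2.43 to 7), a log2 change of -0.63 ± 0.14 (adjusted p = 0.00207, edgeR). IFITM2 fell by 0.36 ± 0.11 and IFITM3 by 0.35 ± 0.11 on the log2 scale (adjusted p = 0.0418 and 0.0389). HLA-E fell by 0.16 ± 0.05 (adjusted p = 0.0382), from a median of 239 CPM (202 to 263) to 213 CPM (195 to 232). MX1, a GTPase that blocks viral replication, was the gene that rose, by 0.46 ± 0.14 (adjusted p = 0.0309), from a median of 3.185 CPM (2.43 to 4.86) to 4.22 CPM (3.03 to 7.825). These calls were the least stable. None passed when the libraries numbered 2 or 3 were left out, and 2 passed without the low-detection libraries, GBP1 and MX1. IFITM3 was then at -0.17 (adjusted p = 0.38; 0.00314 to 0.442 over 9 alternatives), and its lowest combination value, 6.62 CPM, was in a low-detection C6 library.

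Against OL9-119 alone the combination had 11 genes higher (27.5%, against 5.00% of all genes) and 1 lower (2.5%, against 7.72%). IRF1 (0.65), IFIT3 (0.56), TAPBP (0.41), IFIT5 (0.33), TAP1 (0.30), HLA-E (0.28) and OAS3 (0.25) rose here as they did with topotecan against DMSO, in comparisons that share no library. GBP2 (0.29), IFI27 (0.41) and TRIM25 (0.18) also rose, and IFIT1 fell by 0.52 on the log2 scale. IRF7 did not pass in this comparison. OAS1 passed on few counts, 1, 55 and 6 with OL9-119 in C6, F7 and G6 against 11, 39 and 27 with the combination, so no fold is given. In the 9 alternatives IFIT1 and IFI27 were lost in 5 each, OAS1 in 4, GBP2 in 3, TAP1 and TRIM25 in 2 each and IFIT5 in 1.

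The test of whether the compounds together departed from the sum of their separate log2 changes called 0 of 40 genes, where 0.0316% of all genes were called. There were 5 genes with an unadjusted p under 0.05 (IRF1, IRF7, IFI27, OAS1 and TRIM25), and DESeq2 called 0. IRF1 stood at -0.20 ± 0.10 and IRF7 at -0.38 ± 0.19. DMSO against untreated libraries called 0 of 40 genes in edgeR and in DESeq2, where 0.0158% of all genes were called, and 2 had an unadjusted p under 0.05, GBP2 (-0.20 ± 0.07) and MX1 (-0.34 ± 0.14).

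C6 and F7 differed in more of these genes than any treatment comparison called. In DMSO libraries 23 of 40 genes differed between C6 and F7 (57.5%, against 39.5% of all genes), 11 between C6 and G6 (27.5%, against 24.4%) and 12 between F7 and G6 (30%, against 17.1%). In untreated libraries the counts were 19 (47.5%, against 32.7%), 10 (25%, against 22.4%) and 7 (17.5%, against 16.7%). Of the genes called between C6 and another clone, most were lower in C6. In DMSO libraries 17 were lower and 6 higher than in F7, and 9 were lower and 2 higher than in G6. How all called genes split by direction between clones was not read, so these splits have no background share. Of the 14 low-detection libraries 10 are of C6. The median log2 difference of C6 in these libraries was -0.31 from F7 and -0.17 from G6 over the 40 genes. Over all genes tested it was -0.05 and -0.015. Genes called in the same direction in both sets of libraries, which share no library, were 12 lower and 2 higher in C6 than in F7 (35% of the 40, against 25.5% of all genes), 7 lower and 1 higher in C6 than in G6 (20%, against 16.0%), and 2 lower and 3 higher in F7 than in G6 (5 of 40, against 11% of all genes). The shares between C6 and G6 and between F7 and G6 in untreated libraries were close to those of all genes.

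**Figure D5:**
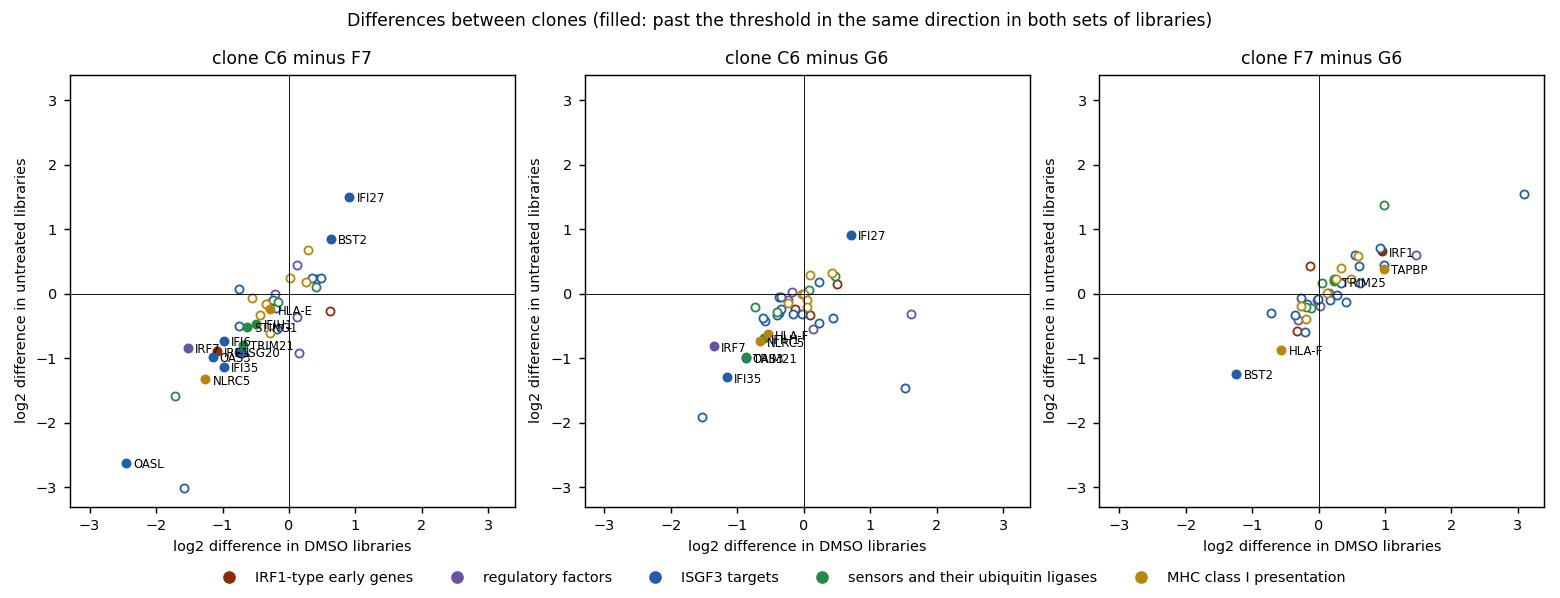
Log2 difference between clones for the 40 tested genes, in DMSO libraries (x axis) and untreated libraries (y axis), with filled points for genes past the threshold in the same direction in both. In the C6 minus F7 panel most filled points lie below 0 on both axes, among them IRF1, IRF7, OAS3 and NLRC5, and IFI27 and BST2 lie above.

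OAS3 had the smallest p between C6 and F7. Its untreated libraries were 33.45, 25.1, 31.6 and 34.9 CPM in C6, 66.2, 65.5, 61.5 and 53.7 CPM in F7, and 48.6, 69.8, 62.8 and 69.5 CPM in G6. C6 lay below both other clones in every library. The log2 difference of C6 from F7 was -1.15 ± 0.10 with DMSO and -0.97 ± 0.10 untreated (adjusted p = 1.08e-14 and 2.75e-12, edgeR), and that of C6 from G6 was -0.88 and -0.99. IRF1 was lower in C6 than in F7 by -1.09 with DMSO and -0.89 untreated, and higher in F7 than in G6 by 0.96 and 0.66. Its untreated libraries were 17.2, 15.6, 20.6 and 21.15 CPM in C6, 36.8, 37.3, 31.8 and 33.1 CPM in F7, and 23.05, 24.2, 20.3 and 20.95 CPM in G6, so F7 stood apart from both.

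NLRC5 followed the same order of C6 and F7, with 7.32 ± 3.81 CPM in C6, 12.8 ± 1.41 CPM in G6 and 19.4 ± 0.67 CPM in F7 (untreated, SD, n = 4). IRF7 was at 12.3 ± 3.39 CPM in C6 against 22.1 ± 4.48 CPM in F7 and 22.1 ± 7.53 CPM in G6. TRIM21 was lowest in C6, with 16.6 ± 2.98 CPM against 29.1 ± 2.33 CPM in F7 and 33.3 ± 3.35 CPM in G6, and IFI35, a partner in interferon signalling, at 3.02 ± 0.64, 6.84 ± 0.06 and 7.62 ± 1.55 CPM. OASL was counted 21 times in the 4 DMSO libraries of C6, 166 times in F7 and 62 times in G6. IRF7 and TRIM21 lie on chromosome 11, where the median gene was lower in C6 than in F7 by -0.54 with DMSO, and NLRC5 on chromosome 16, where it was lower by -0.38. Chromosome 5, with IRF1, and chromosome 12, with OAS3, had medians of -0.03 and 0.00. Chromosome 14, with IFI27, was at 0.29, and chromosome 19, with BST2, at -0.03. The part of these chromosome-wide differences was not tested.

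BST2 and IFI27 went against that order. BST2 had 79.0 ± 20.3 CPM in untreated libraries of C6, 43.5 ± 7.28 CPM in those of F7 and 103.4 ± 15.4 CPM in G6, and was lower in F7 than in G6 by -1.24 in DMSO and in untreated libraries alike. IFI27, a mitochondrial interferon-stimulated gene, was highest in C6, with 8.57 ± 1.06 CPM against 2.95 ± 0.69 CPM in F7 and 4.55 ± 1.45 CPM in G6. HLA-F, a class I molecule, was highest in G6, at 22.3 ± 2.96 CPM against 14.2 ± 4.06 CPM in C6 and 12 ± 2.02 CPM in F7, and was called against both in DMSO and in untreated libraries. In DMSO libraries the call against C6 was lost without the libraries numbered 1, 2, 3 or 4. The DMSO call against F7 was lost without number 1, 3 or 4 and with no filter. In untreated libraries the call against C6 was lost without number 2. TAPBP was lower in G6 than in F7, by a log2 difference of F7 from G6 of 0.98 with DMSO and 0.39 untreated. The untreated call was lost without the libraries numbered 1, 2 or 3 and with no filter. The summed HEK293 markers also differed between the clones, and their part in these values was not tested.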

How the data were processed

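RNA was measured by directional poly(A) sequencing in 60 libraries. The deposited values are raw counts per Ensembl gene, made by the authors with STAR 2.7.8, FastQC 0.11.9 and Picard 2.26.6 on hg38, per the submitters' processing notes. How reads were counted, and whether by strand, is not given in the sources used here. Reads of overlapping genes may not be separable.

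Counts were scaled by TMM and fitted in 1 quasi-likelihood model (edgeR 4.0.16, R 4.3.3) over the 15 groups. The low-count filter kept 18985 genes. Treatment contrasts average the differences within the 3 clones, and p-values were Benjamini-Hochberg adjusted over all genes tested at a threshold of 0.05. Levels are CPM on TMM-scaled totals. Alternatives were DESeq2 1.42.0 size factors, its Wald test, no filter, a replicate term, leaving out each replicate number and, added after seeing the data, leaving out 14 low-detection libraries. Over 90 replicate pairs the chi-square per degree of freedom was at least 2.31, so no library was counted as a duplicate. The fit was tested on simulated data.

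Every one of the 41 genes is named or counted. More values are given for those past the threshold with topotecan, with OL9-119 or for the combination against topotecan. These are levels by library or medians with ranges, but mainly log2 changes for IFIT5, TRIM25, IFITM2 and IFITM3. The genes and lists were chosen with earlier results of these data known.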

Additional observations from a re-analysis of the deposited data

Results flagged for a closer look

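The change of IRF1 with topotecan differed between the clones (edgeR, adjusted p = 0.0022). It was higher in 4 of 4 topotecan libraries than in any DMSO library of each clone.

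Among the groups of 4 libraries examined, 15 groups for each of 15 genes, 17 had 1 library that stood apart from the other 3, with a gap to its nearest neighbour past Dixon's critical value. Chance gives about 1 in 20 groups. In C6 the high libraries were 38.86 CPM for IRF1 with the combination (next 32.04), 110.7 CPM for IFIT5 with topotecan (next 88.03), 231.7 CPM for HLA-E with the combination (next 204.6), 11.04 CPM for GBP1 with DMSO (next 6.769), and 367.3 and 353.2 CPM for B2M untreated and with topotecan (next 313.1 and 324.6). The low libraries in C6 were 28.68 CPM for OAS3 with the combination (next 37.2), 28.61 CPM for TAPBP with DMSO (next 35.69), and 13.12 and 16.49 CPM for IFITM2 and IFITM3 with topotecan (next 21.23 and 28.75).

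In F7 the IRF1 library at 36.37 CPM with DMSO was low (next 39), as were IFIT3 untreated at 5.002 CPM (next 9.003) and IFITM3 with OL9-119 at 24.48 CPM (next 26.21), and IRF7 with OL9-119 was high at 26.45 CPM (next 24.92). In G6 the high libraries were 51.3 CPM for IRF1 and 12.48 CPM for IFIT3 with topotecan (next 44.02 and 9.492) and 51.57 CPM for IFITM3 with DMSO (next 37.96).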

How the results depend on the processing

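No direction reversed. Leaving out every library of 1 replicate number gave between 5 and 9 of the 40 genes for topotecan against DMSO, 1 and 2 for OL9-119 against DMSO, and 0 and 4 for the combination against topotecan. Calls over all genes fell with them, to between 1872 and 2841 from 2913, 858 and 1443 from 1798, and 513 and 1218 from 1287. Between clones in DMSO libraries it gave 15 to 23 (C6 and F7), 6 to 9 (C6 and G6) and 4 to 12 (F7 and G6), and in untreated libraries 12 to 18, 5 to 9 and 3 to 8. Calls over all genes in DMSO libraries were 5184 to 6777, 3168 to 4028 and 1498 to 4325, from 7508, 4635 and 3241. In untreated libraries they were 4397 to 5898, 2603 to 3804 and 1654 to 3681, from 6201, 4259 and 3170. Clone dependence of topotecan gave 0 to 1, where 11 to 22 of all genes passed, from 26. Without a low-count filter OL9-119 against DMSO gave 2. Without the 14 low-detection libraries, 10 of them C6, the combination against topotecan gave 2 and F7 against G6 untreated gave 11. The cause was not tested.

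Of the 40 calls in the 5 treatment comparisons against DMSO, topotecan or OL9-119, none was lost with DESeq2's Wald test, 2 with its size factors, 8 with no filter, 11 without the low-detection libraries, and 13, 16, 18 and 9 without replicates 1 to 4. Within each clone, libraries of 1 replicate number carried the same name prefix in every treatment. Replicate numbers were not treated as pairing the samples in the main fit. The labels do not say what else the numbers share, and only 23 of 48 correlations between same-numbered libraries exceeded 0.1 (lowest -0.49). Pairing in part of the data is possible, since 21 were highest for their own number and those of C6 replicate 3, G6 replicate 1 and G6 replicate 4 were all at least 0.5. With a replicate block the counts were 11 for topotecan against DMSO, 4 for OL9-119 against DMSO, 12 for the combination against DMSO, 6 against topotecan and 14 against OL9-119, and 1 for clone dependence. Calls over all genes rose too, to 3843, 2600, 4931, 2455, 3280 and 39 from 2913, 1798, 4033, 1287, 2415 and 26. The replicate block lost no call. Values of genes with few counts, such as IRF9 and OAS1, are limited by those counts, and IRF9 also by its shared exon bases.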
